A study of Sus scrofa with 9 samples.

Results

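The glycolytic enzymes of the porcine mammary gland were followed from late pregnancy to established lactation through 13 probe sets of an Affymetrix porcine GeneChip, out of 23999 probe sets for pig transcripts. A probe set was a member if the platform annotation gave it exactly 1 gene symbol and that symbol was ALDOA, ALDOC, TPI1, GAPDH, PGK1, PGAM1, ENO1, PKM, LDHA or LDHB. Of these 10 symbols 8 had a probe set, and ALDOA and PGAM1 were not analysed here. GAPDH was represented by 5 probe sets, PKM by 2 and each of the other 6 genes by 1. The 9 control probe sets that the array carries for GAPDH were not counted as members.

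The tissue came from biopsies of 6 sows of the Large White breed, fed corn and soybean meal, at 3 stages: day -17 (17 days before parturition, late pregnancy), day 1 (the day after it) and day 17 (lactation), where the labels give a tolerance of 2 days for day -17 and write that of day 17 in a form that leaves it unclear. The labels name no treatment other than the biopsies, and the sows' age is not given in the sources used here. Each sow was sampled on all 3 days. Every array received a pool made from equal volumes of RNA of 2 sows, and 3 pools per day gave 9 arrays. A pool hides the difference between its 2 sows, a biopsy mixes epithelium with fat, stroma and blood, and in such bulk tissue fewer cells of a type and less RNA per cell cannot be told apart.

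Glycolysis breaks glucose down to pyruvate in the cytosol and yields ATP and NADH on the way. Lactate dehydrogenase then interconverts pyruvate and lactate, and so balances NADH against NAD. In the lactating gland glucose has competing uses, because it is also the precursor of lactose, of the glycerol of milk fat and of the NADPH used in fat synthesis.

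Values are MAS5 signals, linear intensities that had been scaled so that every array had the same trimmed mean. They have no sequencing depth, and the number of arrays limits the precision. Dim probe sets were left out: testing was limited to the 15519 whose signal on 3 or more of the 9 arrays was no lower than that array's 40th percentile, 10 of the 13 members among them. Those 10 members cleared that level on all 9 arrays and cover all 8 genes. The other 3, namely 2 for GAPDH and 1 for PKM, reached it on 0 arrays: the GAPDH pair had signals of 2.41 to 73.3 and the PKM one 5.26 to 83.2, and no change was read from them. Differences are given on the log2 scale, later day minus earlier day, with their standard error from a limma fit of all 9 arrays and n = 3 pools per day, and a call means an adjusted p under 0.05 over all tested probe sets. Signals of different probe sets are not comparable as levels, so only changes of the same probe set, or of a ratio within an array, are compared.

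The mammary origin showed in the milk protein genes, of which 7 of 7 were tested and whose summed signal was 60484 to 85934 on day -17, 216822 to 304309 on day 1 and 458643 to 468487 on day 17. Of the 8 luminal epithelial markers 7 were tested, and they did not move together: on day 17 against day -17, 3 were called higher (EPCAM, CLDN3 and CLDN4), 2 lower (KRT8 and KRT19) and 2 did not pass. In that comparison 47.6% of all genes were called. EPCAM was the brightest probe set of the list, whose summed signal was 16219 to 34052, 25478 to 41213 and 42140 to 46198 on days -17, 1 and 17. Pool 1 of day -17 had the lowest sum. None of the 5 annotated skeletal muscle markers passed the filter, and their highest signal on any array was 121 for CKM.

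The enzymes did not move as a block. PGK1 and LDHA were higher on day 17 than on day -17 at the deposited scaling (lower when the arrays were scaled to spike controls), whereas ALDOC, TPI1, GAPDH, ENO1 and LDHB were lower under each of 4 scalings. PKM did not pass the test in any comparison at the deposited scaling. Among all tested probe sets 45.3% differed between the 3 days by limma's F test, and 9 of the 10 glycolytic ones did, PKM being the exception (adjusted p = 0.219).

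**Figure D1:**
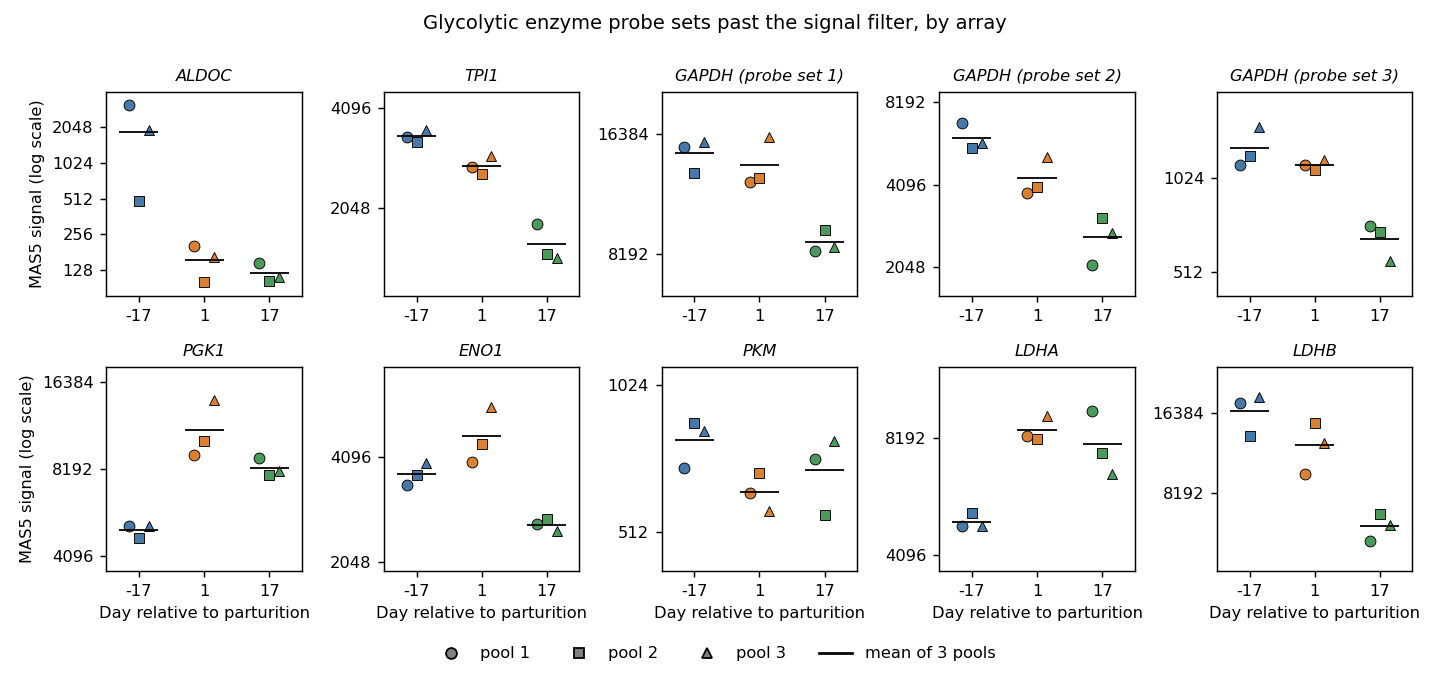
MAS5 signal (log axis) of the 10 tested probe sets on each of the 9 arrays against the day relative to parturition; symbols mark the pool and bars the mean of 3 pools. PGK1 and LDHA are lowest on day -17, the 3 GAPDH probe sets, TPI1, ENO1 and LDHB are lowest on day 17, and ALDOC is high only on day -17, with 1 pool (488) far under the other 2.

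Counted by comparison, the shares of members stood differently against the rest of the array. Between day 1 and day -17, 2 of the 10 were called higher and 1 lower, against 24.1% of all tested probe sets (12.0% higher and 12.1% lower). This count depended on the normalization: after quantile normalization 2 members were called higher and 5 lower, against 22.9% of all tested probe sets. Between day 17 and day 1, 0 were called higher and 6 lower, against 13.6% of all tested probe sets (7.02% higher and 6.61% lower). Between day 17 and day -17, 2 were called higher and 7 lower, against 46.5% (21.7% higher and 24.8% lower). The pools of the later and the earlier day did not overlap for 7, 7 and 9 of the 10 members in the same order of comparisons, where 40.8%, 34.7% and 59.0% of all tested probe sets did not. The median log2 difference of the members was -0.23, -0.68 and -0.85, beside -0.07, -0.0092 and -0.08 over all tested probe sets.

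Because 3 of the 10 probe sets measure GAPDH, the genes were also counted with their brightest probe set each. On day 1 against day -17, 2 of 8 genes rose and 1 fell, where 25.7% of all 5670 genes were called (15.3% higher and 10.4% lower). On day 17 against day 1, 0 rose and 4 fell, where 16.6% were called (8.02% higher and 8.57% lower). On day 17 against day -17, 2 rose and 5 fell, where 47.6% were called (23.8% higher and 23.8% lower). No test of the list as a whole was made. Any 2 of the 3 comparisons share the arrays of a day.

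**Figure D2:**
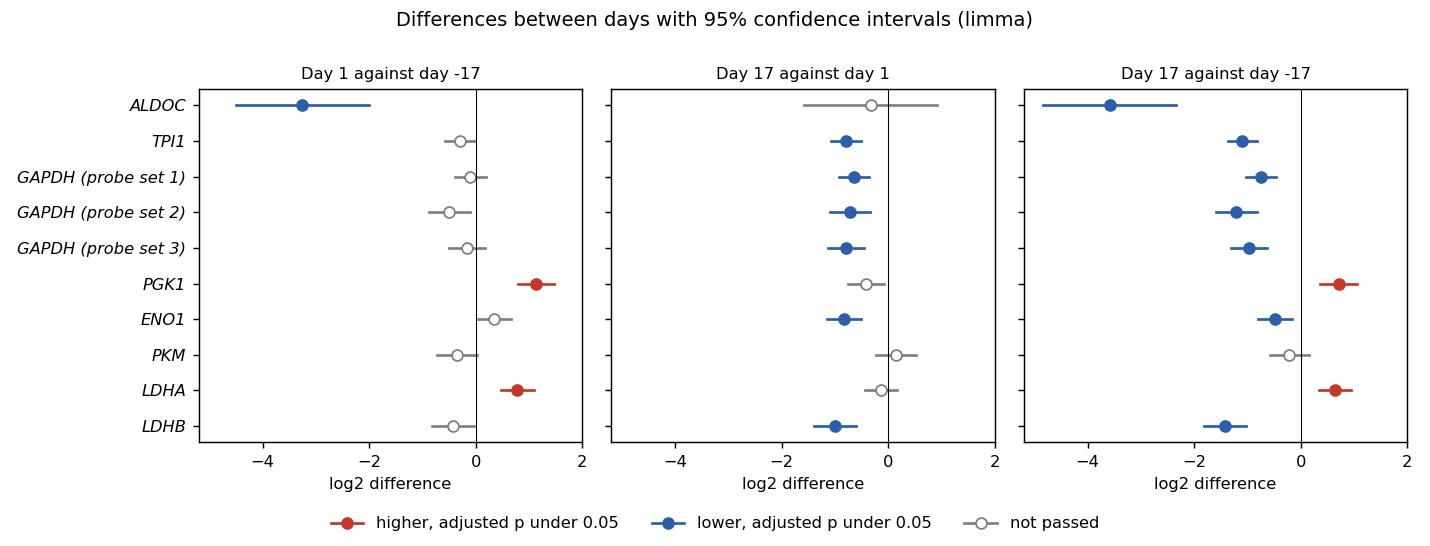
log2 differences of the 10 tested probe sets with 95% confidence intervals, with 1 panel for each comparison of days; filled points have an adjusted p under 0.05 and open grey points do not. In the middle panel every filled point lies left of 0, from GAPDH (-0.64) to LDHB (-0.997).

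ALDOC had the largest change of the group. It encodes aldolase C, the isoform known from brain, and aldolases split fructose bisphosphate into both triose phosphates. Its signal was 3112, 488 and 1939 in the 3 pools of day -17, 202, 100.4 and 166 on day 1, and 148, 102 and 112 on day 17. All 3 late-pregnancy pools lay above every lactation pool, and the ranges of day 17 and day 1 overlapped. The lowest lactation signals (100.4 and 102) were close to the filter level, which was 82.1 to 94.2 on the 9 arrays. The fold sizes given next therefore rest on dim lactation signals. ALDOC fell by 3.26 ± 0.56 (adjusted p = 0.00309) on day 1 against day -17, a 9.56-fold lower signal, and day 17 against day -17 gave -3.59 ± 0.56 (adjusted p = 0.000697), a 12.02-fold lower signal. Day 17 against day 1 gave -0.33 ± 0.56 (95% confidence interval -1.57 to 0.91, adjusted p = 0.729). Without day -17 pool 2 the difference on day 1 against day -17 was -4.04, and that on day 17 against day -17 was -4.37. These were the largest falls when single arrays were left out. The smallest were -2.70 and -3.03, and the limma adjusted p stayed at or below 0.016 and 0.00419.

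The late-pregnancy pools differed among themselves more for ALDOC than for any other member: its SD was 71.2% of the day -17 mean, against 4.41% to 17.1% for the other 9 probe sets. Pool 2, the low one, was also low in adipocyte genes. ADIPOQ, which encodes the fat hormone adiponectin, read 547, 73.9 and 319 in pools 1, 2 and 3 of day -17, 195, 33.5 and 4.58 on day 1, and 23.2, 8.87 and 7.22 on day 17. LIPE, the hormone-sensitive lipase, read 1425, 257 and 876 on day -17 in the same order of pools, and 16.8, 11.97 and 11.2 on day 17.

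The adipocyte list did not move as a whole across days. Of its 11 genes 8 were tested, 1 was higher and 1 lower on day 1 than on day -17, and 3 were higher and 3 lower on day 17 than on day -17. Over all genes 25.7% and 47.6% were called in these comparisons. The summed signal of the list was 10172 to 27501 on day -17, 20725 to 29290 on day 1 and 36457 to 37278 on day 17, and none of the 8 was at 0. FABP4 and LPL were the brightest genes in this sum, with day 17 means of 15890 and 12630. The sum therefore follows them more than the dimmer genes. On day 17 against day -17 the genes that rose were CIDEA, LPL and FABP4, and those called lower were ADIPOQ, LIPE and RBP4, whose signals were under the filter level on all 3 arrays of day 17. The part of fat cells in the ALDOC difference was not tested. Among nerve and glia markers, which were set beside ALDOC because of its isoform, 2 of 7 were tested, and on day 17 MBP was higher and S100B lower than on day -17.

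TPI1, the triose phosphate isomerase that interconverts both aldolase products, was lowest on day 17. Its signals were 3354, 3232 and 3528 on day -17, 2721, 2592 and 2930 on day 1, and 1834, 1486 and 1440 on day 17. The 3 days did not overlap. The difference passed the test on day 17 against day 1 (-0.80 ± 0.13, adjusted p = 0.00488) and on day 17 against day -17 (-1.09 ± 0.13, adjusted p = 0.000116, a 2.14-fold lower signal), but not on day 1 against day -17 (-0.30 ± 0.13, adjusted p = 0.112). That last difference was called after quantile normalization (-0.38, adjusted p = 0.0424) and with spike control scaling (-0.71, adjusted p = 0.00188).

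GAPDH oxidizes glyceraldehyde phosphate and produces the NADH of the pathway, and its transcript is widely used as a reference in expression assays. Its brightest probe set read 15179, 13089 and 15680 on day -17, 12408, 12683 and 16069 on day 1, and 8363, 9406 and 8523 on day 17. Late pregnancy and day 1 overlapped, while all 3 pools of day 17 lay below every earlier pool. On day 17 it was 1.56-fold lower than on day 1 (-0.64 ± 0.13, adjusted p = 0.0115) and 1.67-fold lower than on day -17 (-0.74 ± 0.13, adjusted p = 0.00123). Day 1 against day -17 gave -0.10 ± 0.13 (95% confidence interval -0.38 to 0.18, adjusted p = 0.597), with a value just above 0 after median centring (0.018) and a call after quantile normalization (-0.36). With spike control scaling that difference was called as well (-0.52, adjusted p = 0.00527).

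The other tested GAPDH probe sets gave the same directions with somewhat different sizes. The second by brightness had signals of 6846, 5548 and 5811 on day -17, 3804, 4013 and 5144 on day 1, and 2096, 3103 and 2726 on day 17. Here the 3 days did not overlap, and its differences on day 17 were -0.72 ± 0.17 against day 1 and -1.21 ± 0.17 against day -17 (adjusted p = 0.0235 and 0.000403). The call against day 1 depended on single arrays: the adjusted p was 0.0724 when pool 3 of day 1 was left out, 0.0787 when pool 1 of day 17 was, and 0.0605 when pool 3 of day 17 was. Its difference on day 1 against day -17 (-0.50 ± 0.17, adjusted p = 0.0599) fell short and passed after quantile normalization (-0.67, adjusted p = 0.0157), with spike control scaling (-0.92, adjusted p = 0.00277), with the pool number as a random block (adjusted p = 0.0459), when pool 3 of day 1 was left out (0.0457) and when pool 1 of day 17 was (0.0444). The third by brightness had 1135, 1209 and 1497 on day -17, 1133, 1088 and 1176 on day 1, and 720, 689 and 557 on day 17, and its differences on day 17 were -0.80 ± 0.15 against day 1 and -0.96 ± 0.15 against day -17 (adjusted p = 0.0101 and 0.000752).

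Across the 9 GAPDH control probe sets, which were outside the fit, all 9 were dimmer on day 17 than on day 1 without overlap of the pools, with mean log2 differences of -1.21 to -0.41. Against day -17, 7 of the 9 were dimmer on day 17 without overlap and 2 overlapped, with differences of -1.70 to -0.24. On day 1 against day -17, 3 were dimmer without overlap and 6 overlapped. The controls also carry a measure of RNA quality, the log2 signal at the 3′ end minus that at the 5′ end of a transcript. For GAPDH it was 1.25 to 1.62 on day -17, 1.17 to 1.21 on day 1 and 0.825 to 0.984 on day 17, and for ACTB, encoding beta-actin, 2.81 to 2.86, 3.07 to 3.26 and 3.86 to 3.99. These measures moved with the day in opposite directions, and their part in the differences described here was not tested.

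PGK1 uses the product of GAPDH to make the first ATP of the pathway, and its signal was lowest in late pregnancy. It was 5173, 4709 and 5213 on day -17, 9137, 10260 and 14272 on day 1, and 8927, 7811 and 8057 on day 17. Every lactation pool lay above every late-pregnancy pool, and all pools of day 17 lay below those of day 1. PGK1 rose 2.19-fold on day 1 against day -17 (1.13 ± 0.16, adjusted p = 0.000995) and stood 1.64-fold above day -17 on day 17 (0.72 ± 0.16, adjusted p = 0.00424; -0.56 with spike control scaling). Day 17 against day 1 did not pass (-0.42 ± 0.16, adjusted p = 0.1), but did after quantile normalization (-0.44, adjusted p = 0.0404) and without day 1 pool 1 (-0.55, adjusted p = 0.0341). With spike control scaling it was also called lower (-1.28, adjusted p = 5.62e-05).

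Set against GAPDH on the same array, which removes the scaling of the array, the PGK1 signal gave a log2 ratio of -1.55, -1.47 and -1.59 on day -17, -0.44, -0.31 and -0.17 on day 1, and 0.09, -0.27 and -0.08 on day 17. The ratio was thus 2.35-fold higher on day 1 and 2.74-fold higher on day 17 than on day -17, with no overlap with late pregnancy. This pair was chosen after its values were seen, so its change is a description without a test.

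ENO1, the enolase that forms phosphoenolpyruvate, was brightest on day 1. The signals were 3404, 3644 and 3949 on day -17, 3965, 4466 and 5723 on day 1, and 2625, 2713 and 2507 on day 17. The 3 days did not overlap, although the highest late-pregnancy pool (3949) and the lowest day 1 pool (3965) nearly met. ENO1 was 1.78-fold lower on day 17 than on day 1 (-0.83 ± 0.14, adjusted p = 0.00632) and 1.40-fold lower than on day -17 (-0.49 ± 0.14, adjusted p = 0.0181). The call against day -17 ended after median centring (adjusted p = 0.0672), without day -17 pool 3 (0.0659) or without day 17 pool 3 (0.0585). Its higher signal on day 1 than on day -17 did not pass (0.35 ± 0.14, adjusted p = 0.0989), except without day 1 pool 1 (0.47, adjusted p = 0.0285), and it was below 0 with spike control scaling (-0.07).

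PKM, pyruvate kinase, catalyses the last step to pyruvate. Its tested probe set read 694, 859 and 825 on day -17, 615, 677 and 565 on day 1, and 722, 555 and 788 on day 17. Day 17 overlapped both other days, whereas all day 1 pools lay under the lowest late-pregnancy pool. The differences were -0.35 ± 0.17 on day 1 against day -17 (95% confidence interval -0.73 to 0.02, adjusted p = 0.149), 0.14 ± 0.17 on day 17 against day 1 (-0.23 to 0.51, adjusted p = 0.609) and -0.21 ± 0.17 on day 17 against day -17 (-0.59 to 0.16, adjusted p = 0.318). At the deposited scaling, a change of the size seen for LDHB on day 17 against day -17 lay outside the interval for PKM. With spike control scaling, which lowers every difference, PKM was called lower in each comparison. Its differences there were -0.77 on day 1 against day -17 (adjusted p = 0.00465) and -0.72 on day 17 against day 1 (adjusted p = 0.00326). Day 17 against day -17 gave -1.49 (adjusted p = 1.49e-05).

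On day 17 against day -17 the lactate dehydrogenase subunits changed in opposite directions at the deposited scaling, while with spike control scaling both were lower. LDHA encodes the muscle-type subunit and LDHB the heart-type subunit of the same tetrameric enzyme. LDHA had 4852, 5261 and 4867 on day -17, 8292, 8122 and 9335 on day 1, and 9563, 7470 and 6620 on day 17. All lactation pools lay above late pregnancy, and day 17 overlapped day 1. LDHA rose 1.72-fold on day 1 against day -17 (0.78 ± 0.14, adjusted p = 0.0037). On day 17 it was 1.56-fold above day -17 (0.64 ± 0.14, adjusted p = 0.0041), but at -0.63 with spike control scaling. Day 17 against day 1 gave -0.14 ± 0.14 (95% confidence interval -0.45 to 0.17, adjusted p = 0.542). With spike control scaling that last difference was called lower (-0.996, adjusted p = 0.000194).

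LDHB had 17789, 13389 and 18722 on day -17, 9691, 14952 and 12636 on day 1, and 5427, 6805 and 6233 on day 17. Day 1 overlapped late pregnancy, and day 17 lay below both. LDHB fell 2.00-fold on day 17 against day 1 (-0.997 ± 0.18, adjusted p = 0.00779) and 2.69-fold against day -17 (-1.43 ± 0.18, adjusted p = 0.000202). On day 1 against day -17 it did not pass (-0.43 ± 0.18, adjusted p = 0.109) but did after quantile normalization (-0.71, adjusted p = 0.00951) and with spike control scaling (-0.85, adjusted p = 0.00369). The RefSeq gene table for Sscrofa11.1 lists 2 genes with the symbol LDHB, so which of them the probe set measured is uncertain.

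The log2 ratio of LDHA to LDHB within an array was -1.87, -1.35 and -1.94 on day -17, -0.22, -0.88 and -0.44 on day 1, and 0.82, 0.13 and 0.09 on day 17. The 3 days did not overlap. Its mean was -1.72 ± 0.33, -0.51 ± 0.33 and 0.35 ± 0.41 (SD, n = 3 pools each), so the ratio was 2.31-fold higher on day 1 than on day -17, 1.82-fold higher on day 17 than on day 1 and 4.19-fold higher on day 17 than on day -17. In an exact permutation test over all 1680 arrangements of the 9 arrays into days, which compared the variance between days with that within days, p was 0.00357, the smallest that these arrangements can give. The arrays were shuffled freely, although every sow was sampled on all 3 days. The p therefore takes no account of this repeated sampling. With 3 pools against 3 an exact test of a pair of days cannot fall below 0.1, so pairs of days were not tested. The value of the ratio itself has no meaning as a share of subunits, since probe sets differ in brightness.

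**Figure D3:**
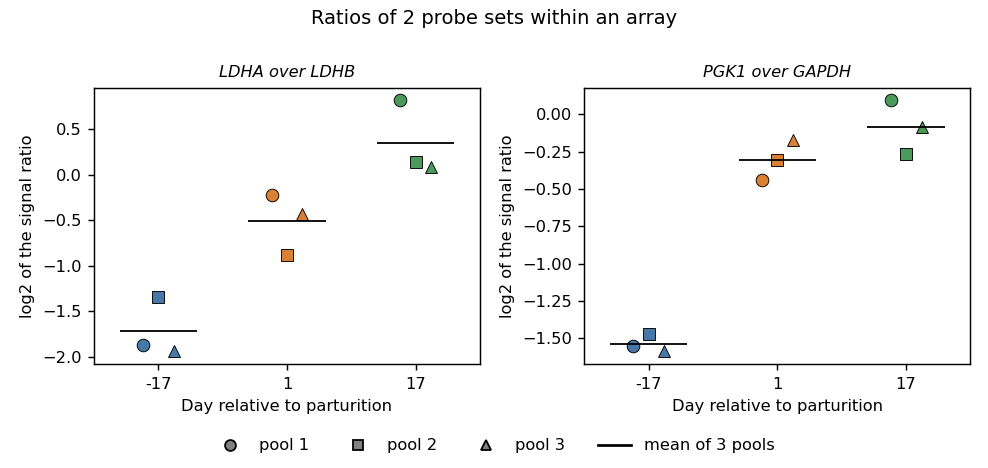
log2 ratio of 2 probe sets on the same array by day, for LDHA over LDHB and for PGK1 over the brightest GAPDH probe set; symbols mark the pool and bars the mean of 3 pools. LDHA over LDHB steps up on each later day (means -1.72, -0.51 and 0.35), and PGK1 over GAPDH steps up between day -17 (mean -1.54) and day 1 (-0.31).

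Over the 9 arrays the enzymes fell into patterns that can be described by correlations of log2 signals, which share the 3 days and therefore carry no p. GAPDH ran with LDHB (Pearson r = 0.932) and TPI1 (0.923), and PGK1 with LDHA (0.912). Between these sets all 6 correlations were below 0: -0.58 for LDHA and LDHB, -0.454 for TPI1 and LDHA, -0.394 for GAPDH and LDHA, -0.353 for PGK1 and LDHB, -0.327 for TPI1 and PGK1 and -0.148 for GAPDH and PGK1. ENO1 correlated with GAPDH (0.84) more than with PGK1 (0.349). ALDOC ran against LDHA (-0.822) and PGK1 (-0.739).

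For each of the 7 genes that differed among days, the 3 genes with the highest correlation over the 9 arrays were looked up among 5670. PKM, which did not pass the F test, had a best match at r = 0.964. Values of that size thus also arose without a called difference among days. ALDOC was most like HADH (r = 0.989), an enzyme of fatty acid oxidation, DGAT2 (0.982), a triglyceride-forming acyltransferase, and PAQR6 (0.977). LDHA was most like HIF1A (0.973), the oxygen-regulated subunit of hypoxia-inducible factor, then TFPT (0.965) and LAMTOR3 (0.964). HIF1A differed by 0.46 on day 1 and by 0.40 on day 17 against day -17. PGK1 ran with VDAC2 (0.986), a channel of the outer mitochondrial membrane, SRPRB (0.984), a subunit of the signal recognition particle receptor, and PTGES3 (0.983). ENO1 was closest to MIF (0.991), a secreted cytokine, UBE2N (0.977) and RNASE1 (0.970). LDHB was closest to GNG2 (0.965), PAF1 (0.963) and the lipid carrier APOE (0.961), TPI1 to PFN2 (0.978), MYO5A (0.976) and USP10 (0.974), and GAPDH to RARS (0.977), RABL3 (0.969) and GTF3C6 (0.968).

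The remaining steps of the pathway were described with a list of 20 other glycolytic enzymes and isoforms, of which 14 were annotated and 11 tested. Of these 11, 1 was higher and 1 lower on day 1 than on day -17, 1 was higher and 2 were lower on day 17 than on day 1, and 2 were higher and 3 lower on day 17 than on day -17. Over all 5670 genes the shares called were 25.7%, 16.6% and 47.6% in the same order of comparisons. The median differences of the 11 enzymes were -0.08, 0.05 and -0.08. Of the early steps, GPI, which converts glucose phosphate to fructose phosphate, gave -0.19 ± 0.13 on day 17 against day -17 (adjusted p = 0.228). Phosphofructokinase was measured through 3 genes, of which PFKP was lower on day 17 than on day -17 (-0.90 ± 0.30, adjusted p = 0.0315), while PFKL and PFKM did not pass (-0.0090 ± 0.22 and -0.22 ± 0.22, adjusted p = 0.977 and 0.432). HK1, a hexokinase, which phosphorylates glucose on entry, read 2022, 2120 and 2573 on day -17, 1458, 1549 and 1575 on day 1, and 908, 930.1 and 840 on day 17. HK1 was lower on day 17 than on day 1 (-0.78 ± 0.13, adjusted p = 0.00564) and than on day -17 (-1.32 ± 0.13, adjusted p = 4.4e-05). SLC2A1, a facilitative glucose carrier, was higher on day 17 than on day -17 (1.12 ± 0.19, adjusted p = 0.00117), with the opposite sign under spike control scaling (-0.16).

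Among the 11, PGAM2 and ENO3 were under the filter level (82.1 to 94.2 on the 9 arrays) on every array of a day and passed the filter only through the days on which they were brighter, so the size of their differences was not measured and no test is given for them, although the counts above include their calls. PGAM2, the muscle phosphoglycerate mutase, read 57.2, 59.7 and 43.4 on day -17, 316, 318 and 422 on day 1, and 403, 519 and 316 on day 17. All its lactation pools lay above late pregnancy. ENO3, the muscle enolase, read 165, 234 and 184 on day -17, 59.6, 262 and 346 on day 1, and 10.8, 55.8 and 15.3 on day 17. All 3 pools of day 17 lay below the other days. LDHD, a mitochondrial dehydrogenase for D-lactate, was higher on day 17 than on day 1 (1.53 ± 0.22, adjusted p = 0.0033) and than on day -17 (1.86 ± 0.22, adjusted p = 0.000138). These values come from the brighter of its 2 tested probe sets only.

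**Figure D4:**
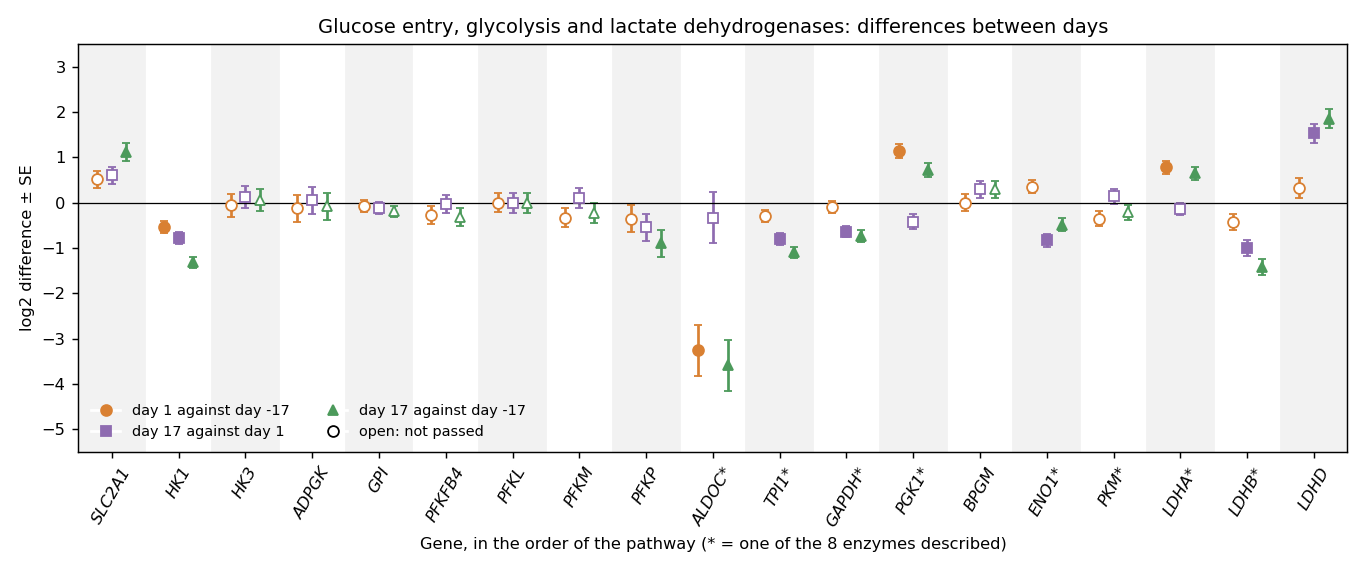
log2 differences ± SE between days for genes in the order of the pathway, from the glucose carrier SLC2A1 to the lactate dehydrogenases; asterisks mark the 8 enzymes described, filled symbols an adjusted p under 0.05. PGAM2 and ENO3 are left out because they were under the filter level on a whole day. At the deposited scaling (with spike control scaling PGK1 is at -0.56), on day 17 against day -17 PGK1 (0.72) lies above 0 between GAPDH (-0.74) and ENO1 (-0.49).

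Genes in the branches around glycolysis were counted on day 17 against day -17. In this comparison 47.6% of all 5670 genes were called (23.8% higher and 23.8% lower). Of the 8 tested genes of the pyruvate dehydrogenase complex and its regulators 2 were higher and 2 lower, of the 4 of gluconeogenesis 1 was higher and 0 lower, of the 4 of the pentose phosphate pathway 1 and 0, and of the 8 of the cytosolic NADH shuttles 1 and 3. Of 7 genes of glycogen and UDP-glucose metabolism 4 were higher and 1 lower, with a median difference of 0.57. Of the 7 tested glucose carriers 2 were higher and 2 lower, of the 3 lactate and pyruvate carriers 1 and 0, and the only tested regulator of the list of 6, PFKFB4, did not pass (-0.32 ± 0.20, adjusted p = 0.204). Hypoxia factors and their targets outside glycolysis gave 5 higher and 0 lower of 8, with a median of 0.46. Among the carriers counted as higher, SLC2A4 was under the filter level on all 3 arrays of day -17. Among the shuttle genes counted as lower, GPD1 was under it on all 3 arrays of day 17. The size of the differences of SLC2A4 and GPD1 was thus not measured.

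Marker lists of cell types and of the cell cycle are given for the same comparison, in which 47.6% of all genes were called. On day 17 against day -17, 4 of 5 tested cell cycle genes were lower (median -1.98, summed signal 1590 to 2047 on day 17 and 2756 to 5281 on day -17), 3 of 4 fibroblast genes were lower (12742 to 14437 and 27672 to 35344), and 2 of 3 erythrocyte genes were lower (750 to 839 and 1587 to 3354). Macrophage markers gave 1 higher and 0 lower of 3 (1267 to 1819 and 1813 to 3151), T and NK cell markers 0 and 0 of 4 (433 to 560 and 448 to 785), endothelial markers 0 and 1 of 4 (5228 to 6534 and 5290 to 8377), and myoepithelial markers 4 and 0 of 5 (31029 to 50913 and 20926 to 26393). No listed gene that was tested was at 0. The myoepithelial count includes MYLK, which was under the filter level on all 3 arrays of day -17. The cell cycle count includes MCM5, under that level on all 3 arrays of day 17. The size of the differences of MYLK and MCM5 was thus not measured. Within day 1 the pools also differed: in pools 1, 2 and 3 the fibroblast sum was 32211, 14016 and 18033. The macrophage sum was 4767, 2951 and 1403 there, and the luminal epithelial sum 25478, 36466 and 41213. Pool 1 did not stand apart in the myoepithelial sum (41936, 44234 and 34114). The part of these lists in the differences of the glycolytic enzymes was not tested.

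All directions are relative to the trimmed mean to which the arrays had been scaled. The 27 spike control probe sets, bacterial and phage transcripts added to each hybridization, were brighter by 0.42, 0.86 and 1.28 log2 in the 3 comparisons, so scaling the arrays to them lowers every difference by these amounts and moved the median of all tested probe sets on day 17 against day -17 to -1.36. With spike control scaling LDHA and PGK1 were lower on day 17 than on day -17 (-0.63 and -0.56), still above the median of all probe sets, the rise of LDHA on day 1 was not called (0.36, adjusted p = 0.0523) and that of PGK1 was 0.71. The differences of ALDOC, TPI1, GAPDH, ENO1 and LDHB on day 17 against day -17 kept their sign, as did the ratio of LDHA to LDHB, in which the scaling cancels.

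**Figure D5:**
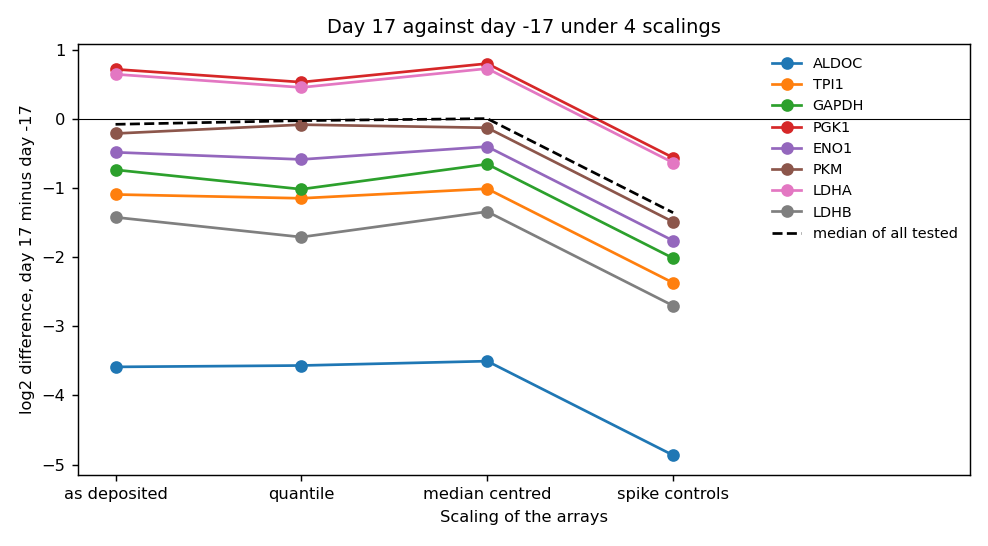
log2 difference on day 17 minus day -17 for the brightest tested probe set of each of the 8 genes under the deposited scaling, quantile normalization, median centring and scaling to the spike controls; the dashed line is the median of all tested probe sets. The order of the genes is the same under all 4 scalings, with PGK1 and LDHA on top and ALDOC at the bottom, while their position relative to 0 shifts with the spike controls.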

How the data were processed

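Signals are linear intensities that the authors deposited for 9 arrays; per the submitters' processing notes MAS5 was used, and its version and settings are not given in the sources used here. Their trimmed mean, without the lowest and highest 2% of probe sets, was 500.1 on each array. Signals were log2-transformed with no pseudocount and fitted with limma 3.58.1 (R 4.3.3; lmFit, eBayes with an intensity trend, day as the only term), with Benjamini-Hochberg adjustment over 15519 probe sets and calls at an adjusted p under 0.05. The 124 control probe sets stayed out. Platform annotation gave 1 symbol to 10099 probe sets, several to 198 and none to 13826, and a gene with several tested probe sets was represented by the brightest. The fit was tested on simulated data.

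Samples were grouped by the day in their labels. The labels do not say whether a pool number marks the same sows on each day. Deviations from the day means correlated at 0.235 to 0.506 (day 1 and day -17), 0.0960 to 0.107 (day 17 and day 1) and 0.105 to 0.130 (day 17 and day -17) between arrays of the same number. Between arrays of different numbers the correlations were lower, at -0.387 to 0.113, -0.0768 to -0.0268 and -0.0739 to -0.04215 in the same order. All arrays derive from the same 6 sows, which neither the fit without a block nor the permutation test of the LDH ratio uses.

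Members and lists were chosen with earlier results of these data known. All members were named. Of the other genes, the rule took, per list and comparison, the 2 called in each direction that changed most. It also took the 3 with the most similar pattern per member. From the lists, names were kept here to the glycolytic steps, SLC2A1 and marker genes of fat, nerve and epithelium. SLC2A4, GPD1, MYLK and MCM5 were also named, because they were under the filter level on a whole day. GPI, PFKL, PFKM, PFKP, PFKFB4, CKM, ADIPOQ, FABP4 and CLDN4 were added after their values were seen. ALDOA and PGAM1 were not analysed here. Alternatives covered normalization, scaling, pseudocount, filter, variance model, arrays in the fit, blocks and leaving out each array.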

Additional observations from a re-analysis of the deposited data

How the results depend on the processing

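Of 570 recomputed member differences, 539 kept their direction and side of the threshold, 7 lost a call, 19 gained 1 and 5 reversed. The reversals were GAPDH on day 1 against day -17 with median centring (0.018) and, with spike control scaling, ENO1 on day 1 against day -17 (-0.069), PKM on day 17 against day 1 (-0.72), PGK1 (-0.56) and LDHA (-0.63) on day 17 against day -17; SLC2A1 also reversed there (-0.16). Among all probe sets, spike control scaling called 6974, 10953 and 13057 in the 3 comparisons (main: 3736, 2116 and 7223), split into 833 higher and 6141 lower, 115 and 10838, and 486 and 12571; a minimum change of 2-fold left 1592, 820 and 3809. Leaving out 1 array gave 2110 to 4424, 1049 to 2109 and 5887 to 7639, the first falling to 2324 without day -17 pool 3 and to 2110 without day 1 pool 3, the second to 1397 and 1329 without day 1 pool 2 or 3 and to 1079, 1168 and 1049 without day 17 pool 1, 2 or 3. Of the 10 members, 3 were called on day 1 against day -17, 7 (2 higher and 5 lower) after quantile normalization and 8 with spike control scaling; with a minimum of 2-fold, 0 of the 6 on day 17 against day 1 and 4 of the 9 on day 17 against day -17 were left. Leaving out 1 array gave 3 to 4, 5 to 7 and 8 to 9 calls. The ratio of LDHA to LDHB moved by 1.83 to 2.25 log2 without 1 array (exact permutation p up to 0.00714). The pool number as a fixed replicate block changed no member's call, and as a random block it added the second GAPDH probe set on day 1 against day -17 (-0.50, adjusted p = 0.0459). The cause of these shifts was not tested. The ratio of ALDOA to ALDOC was not run, and averaging probe sets does not alter the LDH ratio, since each gene has 1.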
